A study of Mus musculus with 8 samples.

Results

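The genes described here are 10 listed feedback targets of the Wnt and beta-catenin pathway: Axin2, Lef1, Tcf7, Nkd1, Znrf3, Rnf43, Apcdd1, Tnfrsf19, Wif1 and Lgr5. Every array feature (probe set) annotated to 1 of these symbols alone was taken. This gave 23 probe sets for 9 of the 10 genes, out of 45037 tested probe sets and 18193 genes in all. Tcf7 was not analysed here, because no probe set matched its symbol. Where a gene had several probe sets, the one with the highest mean log2 signal over the 8 arrays stands for the gene, and the others are given beside it. The data are Affymetrix mouse genome arrays of RNA from whole optic nerves of C57BL/6 mice aged 35 to 45 days, labelled as 6 nerves a sample. The nerves were kept for 3 days in organotypic culture, in serum-containing medium with saline (Saline, n = 4) or with 20 mM lithium chloride (Lithium, n = 4). The study's methods name the strain C57/BL10 and give another number of nerves, without saying for how many samples, and describe nerves cultured with the retina attached. They state that the 20 mM was meant to give a lower, therapeutic concentration inside the nerve, which these data do not measure. Whether the 4 samples of a group are separate cultures is not stated, so each p-value measures only how much these samples vary, and that variation may be technical.

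In canonical Wnt signalling a Wnt ligand binds a Frizzled receptor and an LRP co-receptor, the complex that marks beta-catenin for destruction is inactivated, and beta-catenin then joins TCF and LEF proteins on DNA. Lithium is a known inhibitor of glycogen synthase kinase 3, the kinase of that complex. Several targets of the pathway act back on it: Axin2 rebuilds the destruction complex, Nkd1 binds Dishevelled, Znrf3 and Rnf43 remove Frizzled receptors, and Apcdd1 and Wif1 act outside the cell. In white matter the pathway is known for its part in the timing of oligodendrocyte precursor maturation and in the blood-brain barrier of endothelial cells. The comparison asked here is whether the level of these target mRNAs differed between nerves cultured with and without lithium.

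The genes showed no common direction. Lef1, a DNA-binding partner of beta-catenin, fell 2.50-fold in Lithium, a call that was lost with the array number as a block (adjusted p 0.0800 by limma) and in 7 of 8 fits that left out 1 array. Axin2, the target most often used to read the pathway, was 1.28-fold higher on average, and its 4 Lithium arrays all lay above its 4 Saline arrays, but it did not pass the test over all probe sets. Nkd1, Znrf3, Rnf43, Apcdd1 and Tnfrsf19 did not pass, and Wif1 and Lgr5 lay near or below the background of the arrays. At an adjusted p under 0.05 by limma, 0 of the 9 genes were higher, beside 1.18% of all genes, and 1 was lower, beside 2.05% of all genes. At an unadjusted p under 0.05 limma gave 1 gene higher, Axin2, and 1 lower, Lef1, where 22.0% of all genes passed in either direction (3.23% at the adjusted p). The median log2 fold change of the 9 genes, Lithium minus Saline, was 0.09, with 5 above 0 and 4 below. These counts include Lgr5 above 0 and Wif1 below 0, whose direction is not informative so near the background. Of all genes, 47.3% lay above 0. In such bulk tissue, fewer cells of a type and less RNA per cell cannot be told apart.

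**Figure D1:**
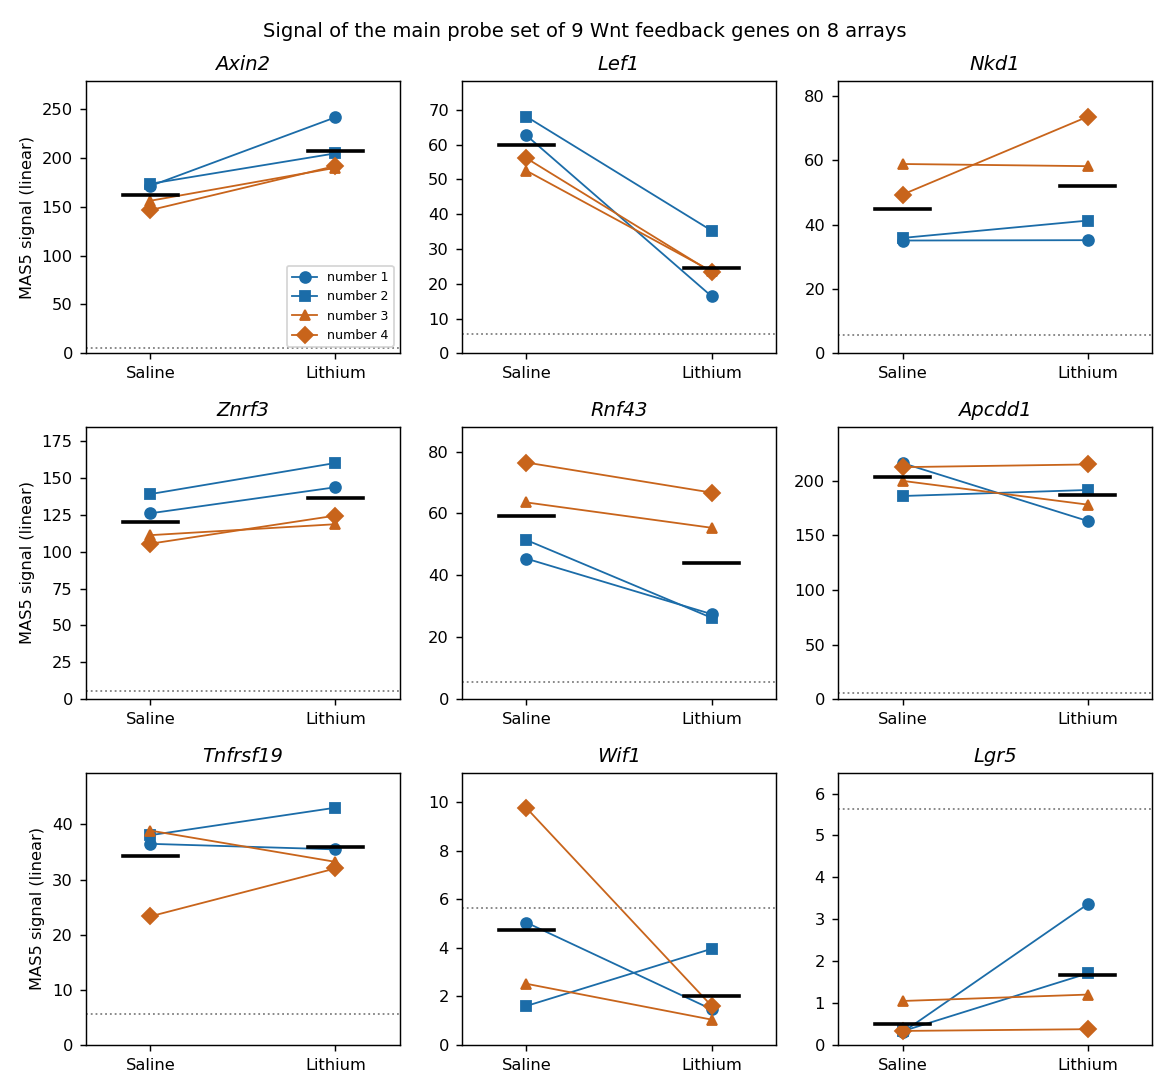
Signal of the main probe set of each of 9 Wnt feedback genes on 8 arrays, as MAS5 signal on a linear axis from 0, for 4 Saline and 4 Lithium samples. Points are arrays, lines join those of the same number (1 and 2 blue, 3 and 4 orange), black bars are group means, and the dotted line is the highest poly-A control signal on any array. The Lef1 points of Lithium lie below all of Saline, those of Axin2 lie above all of Saline, and Wif1 and Lgr5 lie around or under the dotted line.

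The signals are MAS5 values on a linear scale, which the authors scaled to the same trimmed mean of 100 on each array. The median signal of an array ran from 12.3 to 17.5, and 13.1 to 16.6% of its probe sets were raised to the floor of 1 used before taking log2. Background was judged by 27 poly-A control probe sets, whose highest signal on an array ran from 2.13 to 5.64. Whether poly-A control transcripts were added to the samples is not stated in the study's methods. Above that level on all 8 arrays were 13 of the 23 probe sets and 7 of the 9 main probe sets, those of Axin2, Lef1, Nkd1, Znrf3, Rnf43, Apcdd1 and Tnfrsf19. With 4 arrays a group, their number limits the precision of each value. Signals of different probe sets are not set against each other, since probes differ in response.

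Sequences before transcript starts of Axin2 and Lef1 are shown because these are the 2 genes whose main probe sets separated the groups. They are the 250 bases before a transcript start from the RefSeq table for GRCm38.p6, read 5′ to 3′ on the plus strand. For Lef1, whose table entry has 4 windows, the first window and the fourth, which alone holds a motif, are given. The fourth precedes a later start and lies downstream of the first start. TCF and LEF proteins bind sites around a CTTTG core. The letters CTTTG followed by A or T and then again A or T were searched on both strands of windows of 300 bases, from 250 before to 50 after the start. This makes 4 motifs, and no site can match more than 1 of them. Capitals mark a match in reverse orientation.
Axin2, chr11:108920099-108920348: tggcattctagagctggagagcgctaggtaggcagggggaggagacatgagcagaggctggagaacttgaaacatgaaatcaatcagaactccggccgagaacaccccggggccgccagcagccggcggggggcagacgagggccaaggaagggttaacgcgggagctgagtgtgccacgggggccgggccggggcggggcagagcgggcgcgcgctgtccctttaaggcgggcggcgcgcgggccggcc
Lef1 window 1, chr3:131110047-131110296: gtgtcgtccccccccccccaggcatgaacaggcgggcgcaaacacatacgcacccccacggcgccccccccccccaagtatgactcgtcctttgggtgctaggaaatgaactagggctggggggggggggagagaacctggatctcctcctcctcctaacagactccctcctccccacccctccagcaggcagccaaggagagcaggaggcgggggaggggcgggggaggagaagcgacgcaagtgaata
Lef1 window 4, chr3:131156044-131156293: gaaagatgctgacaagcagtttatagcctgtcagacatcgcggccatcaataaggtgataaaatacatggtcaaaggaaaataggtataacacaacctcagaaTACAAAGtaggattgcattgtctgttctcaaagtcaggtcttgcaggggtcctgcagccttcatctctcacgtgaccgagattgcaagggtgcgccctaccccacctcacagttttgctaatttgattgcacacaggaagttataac
The search among the members left out Tcf7 and any window on a whole excluded chromosome, so other members may also have windows in the table. Windows of 6 members were searched, 11 windows in all, and 2 of these held a motif. They were Lef1 window 4, with CTTTGTA on the opposite strand at -147 to -141 from the start, and a window of Tnfrsf19, with CTTTGAT on the opposite strand at -202 to -196. Over all 32851 windows of the table, with none left out, 16.9% held any of the 4 motifs. The Axin2 window held none, which says only that these letters are not in these bases. The match in Lef1 is a description of the sequence, and binding was not tested.

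Axin2 encodes a scaffold of the destruction complex and is induced by beta-catenin in many tissues. Its main probe set read 171, 174, 156 and 147 in the 4 Saline samples and 242, 205, 189.9 and 192 in the 4 Lithium samples. The lowest Lithium array thus lay above the highest Saline array, and each Lithium array lay above the Saline array of the same number. The means were 162 ± 12.8 and 207 ± 24.0 (SD, n = 4 each). The log2 fold change was 0.35 (SE 0.10, 95% interval 0.11 to 0.59), with an adjusted p of 0.132 by limma. It was 0.37 within arrays numbered 1 and 2 and 0.33 within arrays numbered 3 and 4. Leaving out any 1 array gave 0.27 to 0.39, and none of these fits passed (adjusted p 0.152 to 0.263). Groups that separated upwards like this made up 6.47% of all genes. A second Axin2 probe set lay near background, at 4.48 ± 3.05 and 6.55 ± 3.84, and its groups overlapped (adjusted p 0.741 by limma).

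Among fits with another setting, Axin2 passed in the one that held a term for arrays 1 and 2 against 3 and 4, where its adjusted p by limma was 0.0389. The labels give no such split, which was seen in how these same arrays deviated. The share of all genes called in that fit is not given here. Over the other alternatives its adjusted p ran up to 0.539. Axin2 was lower by 0.20 on the log2 scale in arrays 3 and 4 than in arrays 1 and 2, with overlapping ranges, 147 to 192 against 171 to 242. The term takes this difference out of the residual spread, and leaves the fold change at 0.35.

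Lef1 encodes the transcription factor that carries beta-catenin to DNA and is itself a target of the pathway. Its main probe set read 62.7, 68.1, 52.5 and 56.1 in Saline and 16.4, 35.3, 23.6 and 23.3 in Lithium. All 4 Lithium arrays were below all 4 Saline arrays, and all 8 values were above the poly-A controls. The means were 59.8 ± 6.91 and 24.7 ± 7.83 (SD, n = 4 each). The log2 fold change was -1.32 (SE 0.23, 95% interval -1.86 to -0.78), with an adjusted p of 0.0394 by limma. Groups that separated downwards made up 8.92% of all genes.

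The direction of Lef1 held in each alternative that gave a value, from -1.51 to -0.83 on the log2 scale, while the call did not. With the array number as a block, its adjusted p by limma was 0.0800, in a fit that called 0.346% of all genes lower and 0.0495% higher, and none of the 9 genes. Of the 8 fits that left out 1 array, it passed in 1, without Lithium replicate 2 (0.0341), and the others gave 0.0606 to 0.106. Over all alternatives the adjusted p ran from 0.0180 to 0.301. The change was -1.44 within arrays 1 and 2 and -1.21 within arrays 3 and 4. The second Lef1 probe set was at or under the poly-A controls on all 8 arrays and gives no fold.

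**Figure D2:**
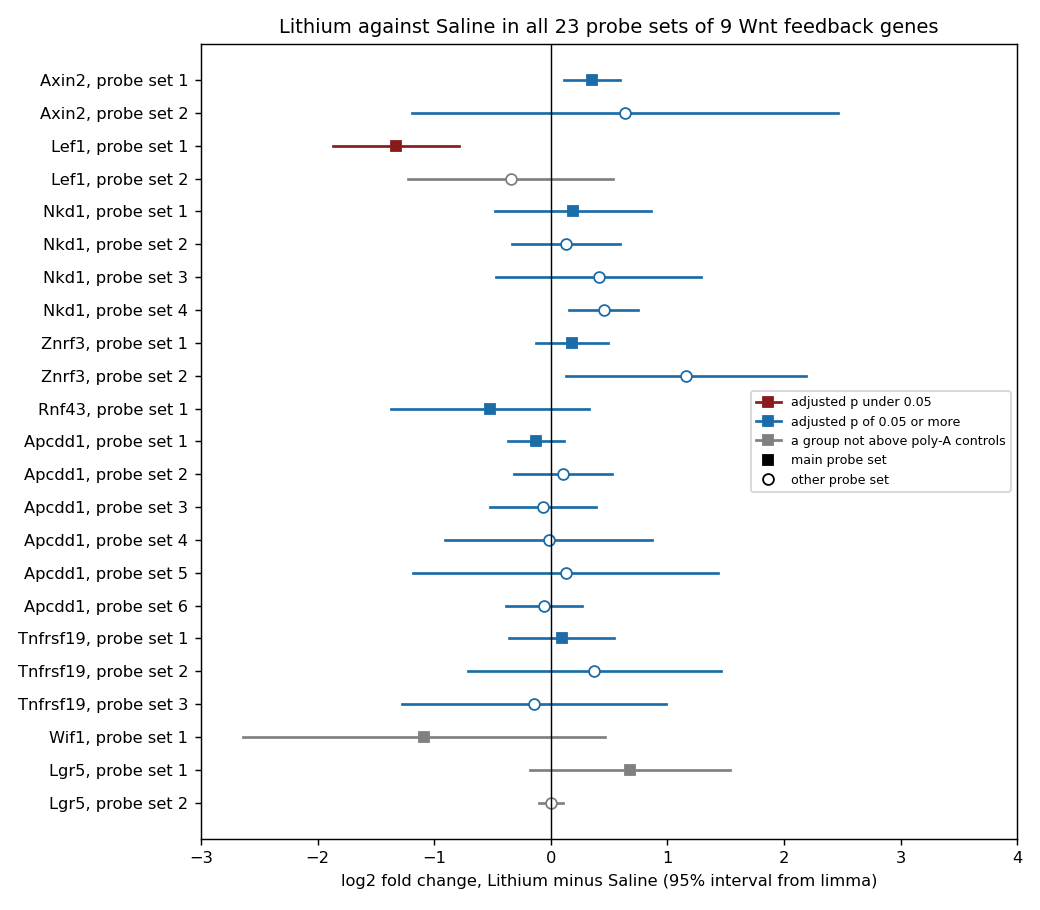
Log2 fold change, Lithium minus Saline, of all 23 probe sets of the 9 genes, with 95% intervals from limma (4 arrays a group). Squares are main probe sets, circles the others, red marks an adjusted p under 0.05 and grey a group with no array above the poly-A controls. The only red mark is the main probe set of Lef1 at -1.32, and the Axin2 interval of 0.11 to 0.59 lies to the right of 0 without passing.

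Nkd1, an inducible inhibitor that binds Dishevelled, was measured by 4 probe sets. The main one read 35.1, 35.9, 58.9 and 49.4 in Saline and 35.2, 41.3, 58.2 and 73.6 in Lithium. The groups overlapped almost fully, at 44.8 ± 11.4 and 52.1 ± 17.3 (SD, n = 4 each). Its log2 fold change was 0.19 (95% interval -0.48 to 0.86, adjusted p 0.796 by limma). The fourth of its probe sets in the plot of changes read 30.4, 22.6, 30.4 and 22.8 in Saline and 36.5, 33.7, 37.0 and 36.8 in Lithium. There the groups did not overlap, yet its change of 0.45 on the log2 scale (95% interval 0.16 to 0.75) did not pass either (adjusted p 0.119 by limma). The other Nkd1 probe sets gave log2 fold changes of 0.13 and 0.41 (adjusted p 0.797 and 0.659 by limma), so that all 4 pointed up and none passed.

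Znrf3 and Rnf43 encode transmembrane E3 ubiquitin ligases that take Frizzled receptors off the cell surface. The main probe set of Znrf3 read 126, 139, 111 and 105 in Saline and 144, 160.1, 119 and 124 in Lithium. Each Lithium array lay above the Saline array of the same number, as for 16.1% of all genes, but the groups overlapped. The log2 fold change was 0.18 (SE 0.13, 95% interval -0.13 to 0.49, adjusted p 0.554 by limma). A dim second Znrf3 probe set read 7.72, 3.16, 6.82 and 2.32 in Saline and 8.54, 8.43, 14.9 and 9.04 in Lithium, with no overlap. It was above the poly-A controls on 3 of 4 Saline arrays, and its log2 fold change of 1.16 (95% interval 0.13 to 2.19) did not pass (adjusted p 0.226 by limma).

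Rnf43 went the other way without passing. Its 1 probe set read 45.4, 51.4, 63.6 and 76.4 in Saline and 27.5, 26.3, 55.4 and 66.7 in Lithium. Each Lithium array lay below the Saline array of the same number, as for 19.0% of all genes, while the groups overlapped. The means were 59.2 ± 13.8 and 44.0 ± 20.3 (SD, n = 4 each), and the log2 fold change was -0.52 (SE 0.36, 95% interval -1.37 to 0.33, adjusted p 0.526 by limma). It was -0.85 within arrays 1 and 2 and -0.20 within arrays 3 and 4.

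Within groups, the values of Nkd1, Rnf43 and Znrf3 were split by array number. Nkd1 ran from 35.1 to 41.3 on the 4 arrays numbered 1 and 2 and from 49.4 to 73.6 on those numbered 3 and 4. Rnf43 likewise ran from 26.3 to 51.4 and from 55.4 to 76.4, a difference of 0.85 on the log2 scale that exceeds its change with lithium. Znrf3 ran from 126 to 160.1 and from 105 to 124, lower in arrays 3 and 4. Of all genes, 7.85% were split upwards in this way and 6.71% downwards. What the numbers stand for is not given in the labels, and its part in these values was not tested. With a term for this split, the adjusted p by limma was 0.129 for Rnf43, 0.157 for Znrf3 and 0.393 for Nkd1.

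Across all 23 probe sets, the groups separated upwards in 3, the main one of Axin2 and the fourth of Nkd1 and the second of Znrf3, and downwards in 1, that of Lef1. Over all tested probe sets these shares were 5.52% and 6.44%. At an adjusted p under 0.05, limma called 0.944% of all tested probe sets higher and 1.39% lower.

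Apcdd1 encodes a membrane glycoprotein that binds Wnt and LRP proteins and is known in endothelial cells of the blood-brain barrier. Its main probe set, of a type whose probes may also match other transcripts, read 216, 186, 199.9 and 212 in Saline and 163, 192, 178 and 215 in Lithium, with groups that overlapped. The means were 204 ± 13.7 and 187 ± 22.0 (SD, n = 4 each), with a log2 fold change of -0.13 (95% interval -0.37 to 0.11, adjusted p 0.592 by limma). Over its 6 probe sets the log2 fold change ran from -0.13 to 0.13, with both signs, and the adjusted p from 0.592 to 1.

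Tnfrsf19, also called Troy, is a receptor of the tumour necrosis factor family. Its main probe set read 36.5, 38.1, 38.9 and 23.3 in Saline and 35.5, 43.0, 33.2 and 32.0 in Lithium. Apart from the low value of Saline replicate 4, the arrays lay close together. The log2 fold change was 0.09 (95% interval -0.36 to 0.54, adjusted p 0.868 by limma), and without Saline replicate 4 it was -0.082. Its other probe sets gave 0.37 and -0.14 and did not pass either.

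Wif1, a secreted protein that binds Wnt ligands, read 5.04, 1.60, 2.52 and 9.76 in Saline and 1.47, 3.96, 1.04 and 1.61 in Lithium. It was above the poly-A controls on 1 of 4 Saline arrays and on 0 of 4 Lithium arrays, so no fold is given (adjusted p 0.460 by limma). Lgr5, a receptor for R-spondins and a stem cell marker in other tissues, was at or under the poly-A controls on all 8 arrays with both probe sets. Its brighter probe set read from 0.300 to 1.05 in Saline and from 0.375 to 3.36 in Lithium.

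The rest of the pathway was counted over 6 lists of 136 genes, of which 131 were measured. By limma 0 were higher at an adjusted p under 0.05 and 9 were lower, beside 1.18% and 2.05% of all genes. At an unadjusted p under 0.05 there were 5 higher and 34 lower by limma, where 22.0% of all genes passed in either direction. Changes above 0 were found in 53 and below 0 in 77, while 47.3% of all genes lay above 0. The median log2 fold change was -0.15. With the array number as a block limma called 0 of the 131 genes, and 41 had an unadjusted p under 0.05, as did 25.3% of all genes in that fit. The count of 9 was 2, 2, 1 and 2 without Saline replicates 1, 2, 3 and 4, and 5, 5, 3 and 10 without Lithium replicates 1, 2, 3 and 4. The share of all genes called in each of those fits is not given here.

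**Figure D3:**
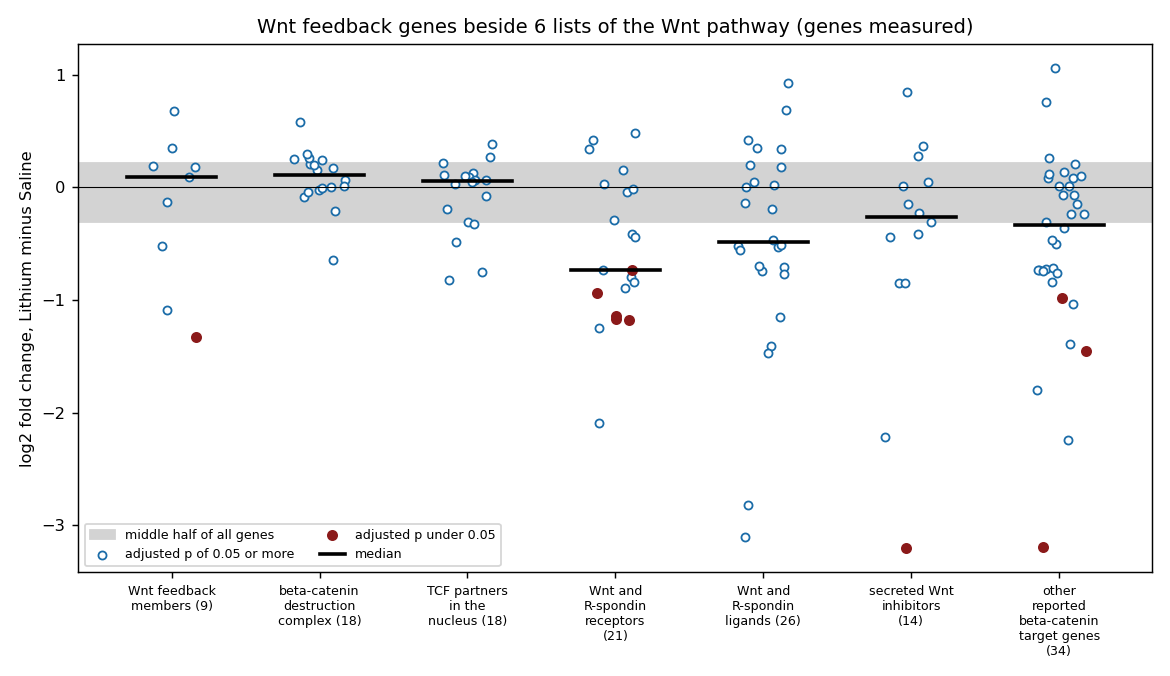
Log2 fold change, Lithium minus Saline, of each measured gene of the feedback list and of 6 other Wnt pathway lists. Filled points have an adjusted p under 0.05 by limma, bars are list medians and the grey band holds the middle 50% of all genes. The 5 filled receptor genes, the 1 filled inhibitor and the 3 filled target genes all lie below 0, and no gene of the destruction complex or of the TCF partners is filled.

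Inside the cell, no gene of the destruction complex (18 measured, median 0.11) or of the TCF partners in the nucleus (18 measured, median 0.06) passed. At an unadjusted p under 0.05 by limma there were 2 and 5, where 22.0% of all genes passed. Ctnnb1, which encodes beta-catenin, read 1420 ± 91.0 in Saline and 1404 ± 208 in Lithium (log2 fold change -0.03, 95% interval -0.30 to 0.25). Ctbp1, a co-repressor, gave 0.03 (95% interval -0.24 to 0.31). Chosen after their values were seen, the kinase genes Gsk3a and Gsk3b gave 0.21 and 0.26 (adjusted p 0.349 and 0.580 by limma). Gsk3b passed where the mean of its probe sets was taken, at 0.53 with an adjusted p of 0.0276 by limma. Tcf7l2, a DNA-binding relative of Lef1 and also chosen after its values were seen, read 275 ± 14.9 and 198 ± 29.9, a log2 fold change of -0.48 (adjusted p 0.0878 by limma).

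At the cell surface, 5 of 21 measured receptors fell, beside 2.05% of all genes, and none rose, beside 1.18%. The list median was -0.73. Fzd6 fell from 114 ± 12.3 to 50.8 ± 8.44, a log2 fold change of -1.17 (adjusted p 0.0177 by limma). Fzd1 fell from 412 ± 9.03 to 189 ± 36.0, by 1.15 on the log2 scale (adjusted p 0.0199 by limma). Fzd7 fell from 570 ± 113 to 294 ± 31.5, by 0.94 (adjusted p 0.0380 by limma). These are Frizzled receptors for Wnt ligands. The others that passed were Ror1, a receptor kinase, at -1.18 and Fzd8 at -0.73 (adjusted p 0.0255 and 0.0414 by limma). Of the 8 fits that left out 1 array, Fzd6 passed in 6, Fzd1 in 4, Ror1 in 2, Fzd8 in 1 and Fzd7 in 0.

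Of 26 measured ligand genes none passed by limma and 7 had an unadjusted p under 0.05, as did 22.0% of all genes. The list median was -0.49. Wls, the carrier that brings Wnt proteins to the membrane, read 137 ± 15.9 and 126 ± 24.7 (log2 fold change -0.14). Of 14 secreted inhibitors 1 fell, beside 2.05% of all genes. Sfrp5, a decoy that binds Wnt proteins, read 21.1 ± 6.91 in Saline and 2.26 ± 0.756 in Lithium, where no array was above the poly-A controls. Against those control signals Sfrp5 was at least 5.14-fold lower in Lithium (adjusted p 0.0140 by limma), and it passed in all 8 fits that left out 1 array but not with the array number as a block (adjusted p 0.0758). Dkk3 read 516 ± 64.9 and 402 ± 122 (log2 fold change -0.42, adjusted p 0.478 by limma).

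Of 34 other reported beta-catenin targets, 3 fell, beside 2.05% of all genes, and none rose, beside 1.18% (median -0.34). Jag1, a Notch ligand, fell from 281 ± 16.8 to 143 ± 23.3, by 0.99 on the log2 scale (adjusted p 0.0201 by limma). Birc5, a gene of dividing cells, fell from 493 ± 178 to 57.8 ± 26.6, by 3.19 (adjusted p 0.0338 by limma). Twist1, a mesenchymal transcription factor, fell from 103 ± 14.4 to 39.1 ± 12.3, by 1.45 (adjusted p 0.0376 by limma). Ccnd1, the cyclin of the first growth phase of the cell cycle, read 1250 ± 55.1 and 1356 ± 374, a log2 fold change of 0.08 (adjusted p 0.876 by limma). With 1 array left out, Jag1 passed in 3 of 8 fits and Birc5 and Twist1 in 1 each.

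**Figure D4:**
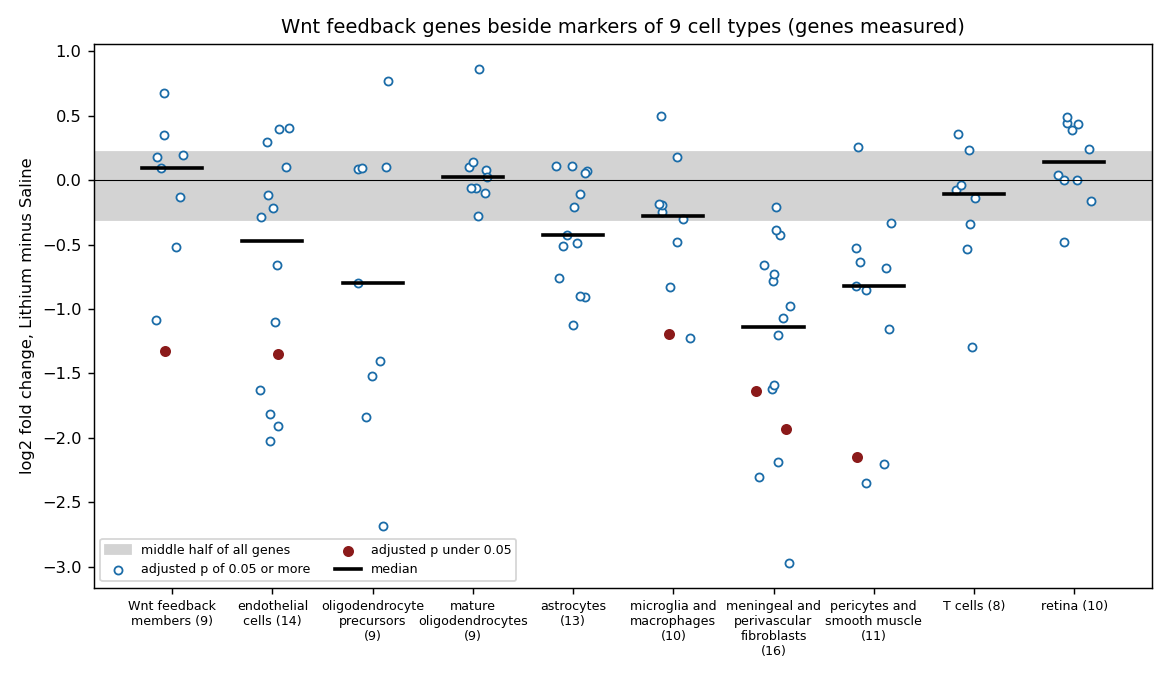
Log2 fold change, Lithium minus Saline, of the feedback genes and of markers of 9 cell types, with filled points at an adjusted p under 0.05 by limma, bars as medians and a grey band for the middle 50% of all genes. The median of the fibroblast markers lies at -1.14 and that of the mature oligodendrocyte markers at 0.03, beside 0.09 for the feedback genes.

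Markers of cell types were read as a check of the tissue and beside the change of Lef1. All measured markers of mature oligodendrocytes and astrocytes were above the poly-A controls on all 8 arrays, with Mbp at 2345 ± 93.8 and 2504 ± 483, Mog at 1245 ± 43.5 and 1274 ± 139, Gfap at 1593 ± 97.1 and 1487 ± 170.2, Aqp4 at 1143 ± 73.9 and 998 ± 151, and Slc1a3 at 895 ± 99.9 and 949 ± 204. The median log2 fold change was 0.03 over 9 markers of mature oligodendrocytes and -0.42 over 13 of astrocytes, none of which passed. For T cells, which also use Lef1, the median over 8 markers was -0.11, and Cd3e, Cd3g and Cd3d averaged 6.78, 2.34 and 3.04 in Saline and 2.36, 1.70 and 2.91 in Lithium. The 10 retinal markers had a median of 0.14 and none passed. Among them Pde6b, Crx, Nrl and Prph2 were above the poly-A controls on 0 arrays and Rbpms and Sag on all 8, with Rbpms at 60.9 ± 10.4 and 44.7 ± 12.8, Sag at 16.7 ± 4.93 and 16.8 ± 3.45 and Gnat1 at 4.93 ± 2.77 and 6.09 ± 4.64.

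The medians of several other marker lists lay below 0, as the change of Lef1 did. At an adjusted p under 0.05 by limma, 2.05% of all genes were lower. The 14 endothelial markers had a median of -0.47 and a summed signal of 2275 to 2997 in Saline and 1920 to 2206 in Lithium. The largest part of these sums was Slc2a1, chosen after its values were seen. It read 1506 ± 130 and 1390 ± 92.5 (adjusted p 0.567 by limma). Of the 14 markers 1 fell, Kdr, which was dim at 16.1 ± 4.53 and 6.20 ± 0.744. Cldn5 read 88.0 ± 32.6 and 71.6 ± 22.0, Pecam1 12.5 ± 1.90 and 13.7 ± 4.04, and Cdh5 27.6 ± 3.66 and 9.83 ± 5.0 (adjusted p 0.731, 0.883 and 0.0771 by limma). The 16 fibroblast markers had a median of -1.14 and sums of 4297 to 6322 and 1765 to 3943, with 2 that fell, Foxc1 and Lum, and Col1a1, Col1a2 and Dcn gave log2 fold changes of -1.62, -1.59 and -1.07. The 11 markers of pericytes and smooth muscle had a median of -0.82 and overlapping sums of 1264 to 2043 and 1152 to 2063. Without Tagln, left out after its values were seen, the sums were 410.0 to 1019 and 219.8 to 339. Among these markers Pdgfrb fell by 2.14 (adjusted p 0.0401 by limma) while Kcnj8 and Rgs5 gave -2.35 and -0.68. The groups separated downwards in 5 of the 14 endothelial, 9 of the 16 fibroblast and 3 of the 11 pericyte and smooth muscle markers. In each of these lists 0 separated upwards. Of all genes, 8.92% separated downwards and 6.47% upwards.

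The 9 markers of oligodendrocyte precursors had a median of -0.80, with sums of 1855 to 2265 and 1511 to 1825, and none passed (Pdgfra -1.52, Cspg4 0.10, Gpr17 -0.80). Olig2 went the other way, at 0.77 (adjusted p 0.103 by limma). Of the 9 markers its groups alone separated upwards, as for 6.47% of all genes. Those of 4 separated downwards, Pdgfra among them, as for 8.92% of all genes. The 10 microglial markers had a median of -0.28, with 1 that fell, Trem2, and Csf1r, Cx3cr1 and P2ry12 gave -0.30, 0.50 and -0.18. With the array number as a block limma called none of these markers (adjusted p 0.0564 for Foxc1, 0.125 for Lum, 0.0989 for Kdr, 0.0550 for Pdgfrb and 0.0610 for Trem2). With 1 array left out, Foxc1 passed in all 8 fits, Lum in 0, and Kdr, Pdgfrb and Trem2 in 1 each. The part of any of these cell types in the fall of Lef1 or of the receptors was not tested.

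The genes whose log2 signal ran most like that of Axin2 over the 8 arrays were Fam189a2, Fam131a, Cfap36, Dcun1d2 and Psph, out of 7316 genes with a mean signal of at least 100. Their Pearson r with Axin2 ran from 0.982 to 0.988, as a description over 8 arrays that share the group difference and the scaling of each array. Their log2 fold changes, whose sign this choice fixes, ran from 0.53 for Cfap36 to 0.99 for Dcun1d2, and none passed (adjusted p 0.0577 to 0.146 by limma). By deviations from the group means, which leave out the group difference, the closest were Psmg4, Zfp617, Ncdn, Alkbh5 and Cfap36, with r from 0.981 to 0.994. Of these Cfap36 is in both sets.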

How the data were processed

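RNA of cultured mouse optic nerves was measured on 8 arrays, 4 Saline and 4 Lithium, grouped by their labels. The authors deposited MAS5 intensities on a linear scale, made with GeneChip Operating Software and GeneSpring GX and scaled to a trimmed mean of 100, with 1 value per probe set and array. Detection calls were not used here. Of 45101 probe sets, 64 Affymetrix controls were left out of the tests. The annotation gave 1 gene symbol to 34958, several to 932 and none to 9211, and the Entrez identifiers of 34754 were found in a RefSeq gene table. Probe sets with several symbols named no gene.

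Intensities were floored at 1, taken to log2 and compared as Lithium minus Saline in limma 3.58.1 under R 4.3.3 (lmFit, then eBayes; no block), which is the moderated test and Benjamini-Hochberg adjustment of the study's methods. P-values were adjusted over all 45037 tested probe sets and called at an adjusted p under 0.05. The study's further thresholds, a level of 200 and a fold change of 2, were an alternative. Group means and SDs were taken on the linear scale and fold changes on the log2 scale. A value counted as above background when it exceeded the highest poly-A control probe set of its own array. Where only 1 group did so, the bound is taken against the mean log2 of, per array, the higher of that control and the gene's own signal. The code was tested on simulated data.

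Both groups carry numbers 1 to 4. Deviations from the group means correlated at 0.167, 0.147, 0.130 and 0.197 for arrays of the same number. All were above the limit of 0.1, which met the rule for pairs from the data alone. The reported fits nevertheless used no block. The block on the array number was an alternative, and in it no member and no other Wnt gene was called. Arrays 1 and 2 also deviated together, as did 3 and 4 (0.0706 to 0.131). That range reaches the lowest same-number value, so these values do not single out pairs by number.

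The members and gene lists were chosen with earlier results of these data known. Beside the members, up to 2 rising and 2 falling genes with the lowest adjusted p in each pathway list are named, the gene with the highest signal, the first 3 symbols of each marker list as far as they matched, and the 5 genes most like Axin2. Genes beyond that rule (Ror1, Fzd8, Twist1, Gsk3a, Gsk3b, Tcf7l2, Kdr, Trem2, Foxc1, Lum, Olig2, Tagln, Pde6b, Crx, Nrl, Prph2 and Rbpms) were chosen after their values were seen. Slc2a1 was chosen in the same way. Older symbols of 3 listed genes were updated. Alternatives were quantile normalization, median centring, a pseudocount of 16, a level filter, array weights, a trended and robust variance, array pairs, the replicate block, each array left out, and averaging the probe sets of a gene. Plots were made in Python 3.11.15 with matplotlib 3.10.9.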

Additional observations from a re-analysis of the deposited data

Results flagged for a closer look

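In 5 of 46 groups of 4 arrays, 1 value lay far from the other 3, measured as its gap over the group's range. Chance gives about 1 in 20 such groups. For the fourth Nkd1 probe set in Lithium the ratio was 0.845, with Lithium replicate 2 lowest at 33.7. For the second Znrf3 probe set in Lithium it was 0.905, with Lithium replicate 3 highest at 14.9. For the main probe set of Tnfrsf19 in Saline it was 0.846, with Saline replicate 4 lowest at 23.3. For the Lgr5 probe sets in Saline it was 0.955 and 0.867, with Saline replicate 3 highest at 1.05 and 0.961, both under the poly-A controls of that array.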

How the results depend on the processing

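Of the 9 genes, 0 were higher in all alternatives by limma except with a term for arrays 1 and 2 against 3 and 4, where 1 was, Axin2. The 1 lower gene, Lef1, was not called, leaving 0, with the replicate block, within arrays 1 and 2, or within arrays 3 and 4. Nor was it called with the probe sets of a gene averaged. Where a level of 200 was required, alone or with a fold change of 2, Lef1 could not be called. Its group means of 59.8 and 24.7 lay under that level. Of the 9 genes only Axin2 and Apcdd1 reached it, so the counts there say nothing of the others. Leaving out 1 array gave 0 to 1 lower genes. The other Wnt genes that fell, 9 in the reported fit, were 0 with the replicate block, 0 within arrays 1 and 2, 0 within arrays 3 and 4, 18 with the term for array pairs, 2 with the fold change and level required, and 1 to 10 with 1 array left out. Those that rose were 0, or 1 with the mean of probe sets. For fits other than the reported one and the replicate block, the share of all genes called is not given here. A change in these counts is thus not a result about Wnt genes. With 1 array left out, the log2 fold change of Tnfrsf19 ran from -0.082, reversed, without Saline replicate 4 to 0.16 without Saline replicate 3, and its highest value over all alternatives was 0.18, with median centring. Against the median of the poly-A controls, 20 member probe sets in place of 13 were above background on all 8 arrays. Nkd1, Znrf3, Rnf43, Apcdd1, Wif1 and Lgr5 kept their direction and stayed past or short of the threshold in each alternative that gave a value. The replicate block changed no other call among the 9 genes. The cause of these differences was not tested. Within arrays 1 and 2 or 3 and 4, 2 arrays a group were fitted. Signal near background limits Wif1, Lgr5 and the second probe sets of Axin2 and Lef1.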
